A study of Homo sapiens with 6 samples.

Results

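The 46 genes described here code for the machinery of DNA replication and of the step from G1 into S phase, and they were taken as a fixed list of gene names. All 46 were found among the 58884 genes of the table, and all 46 had 10 or more counts in at least 3 of the 6 libraries, a condition that 15296 genes met in all. They were measured by RNA-seq in a human immortalized ventricular cardiomyocyte line. The sample labels name T0519, whereas the study's text names AC16 for its RNA-seq. The study uses T0519 and AC16 as separate lines, so the sources disagree on which cells were sequenced. Of the 6 libraries, 3 came from cells transfected with negative control siRNA (NC_1, NC_2 and NC_3) and 3 from cells transfected with siRNA against the cold-inducible RNA-binding protein CIRBP (SiCIRBP_1, SiCIRBP_2 and SiCIRBP_3), with no drug named in the labels. The study left NC_1 and SiCIRBP_2 out of its own test after looking at the same libraries, so that values are given first for the other 4 libraries and then for all 6.

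Before a cell can copy its DNA, the origin recognition complex, CDC6 and CDT1 load the ring-shaped MCM2 to MCM7 helicase onto origins in G1. At the G1-S step, cyclin E and its kinase act together with the E2F factors, which drive transcription of most genes of this list, and CDC45 and the GINS complex join the MCM ring to form the active helicase. Primase, the polymerases, the clamp PCNA with its loader RFC, and the enzymes that join Okazaki fragments then copy both strands from deoxynucleotides made by ribonucleotide reductase, thymidylate synthase and thymidine kinase. Adult cardiomyocytes hardly use this programme, whereas immortalized lines are kept dividing.

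The libraries held between 25726259 and 29919566 estimated counts. CIRBP itself was at 86.4, 85.8 and 91.0 CPM (a gene's counts scaled to the size of the library) in NC_1, NC_2 and NC_3 and at 54.8, 24.3 and 46.3 CPM in SiCIRBP_1, SiCIRBP_2 and SiCIRBP_3, so that every SiCIRBP library lay below every NC library. SiCIRBP_2 stood apart in 14 interferon-stimulated genes, whose summed level was 5412 CPM there, 297.1 and 1014 CPM in SiCIRBP_1 and SiCIRBP_3 and between 513.4 and 553.1 CPM in the NC libraries. Of 14 cardiomyocyte markers, 10 were under 0.5 CPM in every library, among them the sarcomere genes TNNT2, MYH6 and MYH7. The others were GATA4 at 47.4 CPM or more, the sarcomere gene ACTN2 at 13.96 to 22.17, NKX2-5 at 3.028 to 9.49 and TNNI3 at 1.069 or less. Most of the listed markers were thus absent or near absent, but not all. Of 8 fibroblast markers, 2 were under 0.5 CPM in every library and LUM had no count, while the collagen gene COL1A1 was between 1629 and 5234 CPM. The 46 genes were expressed in every library, with a smallest count of 186 in any of them.

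The 46 genes did not move as a block. In the 4-library test 9 of them were called higher in SiCIRBP, 2 were called lower and 35 did not pass. The 9 higher members were GINS1, GINS2, GINS3 and GINS4 of the helicase activator, the clamp gene PCNA, the flap nuclease gene FEN1, RRM2 and TK1 of deoxynucleotide supply, and the cyclin E gene CCNE1. The 2 lower members were the licensing factor CDT1 and the primase subunit PRIM1. A call here is an adjusted p under 0.05 (Benjamini-Hochberg, over all 15421 genes tested) from the quasi-likelihood test of edgeR. Of all those genes, 19.4% were called in either direction, 9.62% higher and 9.76% lower. The pooled share of called members, 11 of 46, lay near the background. By direction, 9 of 46 higher calls were above the background share and 2 of 46 lower calls were below it. This balance was not tested. No member changed by 2-fold or more, whereas 3.62% of all genes were called at that size.

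All 11 called genes are protein-coding, and their positions are given on GRCh38 from GENCODE 29. The GINS genes lie apart from one another, with GINS1 (ENSG00000101003) at chr20:25407727-25452628, GINS2 (ENSG00000131153) at chr16:85676198-85690073, GINS3 (ENSG00000181938) at chr16:58295080-58406144 and GINS4 (ENSG00000147536) at chr8:41529206-41545046. The other replication enzymes are PCNA (ENSG00000132646) at chr20:5114953-5126626, FEN1 (ENSG00000168496) at chr11:61792637-61797244 and PRIM1 (ENSG00000198056) at chr12:56731596-56752373. The genes of nucleotide supply and of cycle entry are RRM2 (ENSG00000171848) at chr2:10120698-10131419, TK1 (ENSG00000167900) at chr17:78174075-78187233, CCNE1 (ENSG00000105173) at chr19:29811898-29824308 and CDT1 (ENSG00000167513) at chr16:88803213-88809258.

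The median log2 fold change of the 46 members was 0.10, against -0.002 for all genes tested, and 33 of 46 members were above 0. In TPM 22 of 46 members were above 0, where the median of all genes was itself shifted to -0.09, and 32 of 46 were above that shift. The same lean was present in the control library that the 4-library test leaves out. Set against the mean of NC_2 and NC_3, the members' median log2 difference was 0.096 in NC_1, 0.096 in SiCIRBP_1, 0.086 in SiCIRBP_2 and 0.10 in SiCIRBP_3. The median of NC_1 thus lay within the range of the 3 SiCIRBP libraries. In bulk RNA, a larger share of cells in a cycle phase and more transcript per cell cannot be told apart. The summed level of the 46 genes was 6030, 5837 and 5743 CPM in NC_1, NC_2 and NC_3 and 6187, 6590 and 6426 CPM in SiCIRBP_1, SiCIRBP_2 and SiCIRBP_3.

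With all 6 libraries edgeR called no member, and it called no gene of the 15217 tested (0%). At an unadjusted p under 0.05 there were 11 members and 3603 genes in all, and the smallest adjusted p of a member was 0.1. DESeq2 on the same 6 libraries called 5 members higher and none lower, namely GINS2, GINS3, RRM2, FEN1 and PCNA, with adjusted p-values between 0.0154 and 0.045, against 4.48% of all genes called higher, 5.04% called lower and 9.52% in either direction. All 11 members called in 4 libraries kept their direction over 6 libraries in edgeR. Leaving out NC_2 or NC_3 from the 4-library test gave fewer calls, and leaving out SiCIRBP_1 or SiCIRBP_3 gave more. This held for all genes tested as well as for the members, so it is no property of the members. The members' median log2 fold change was 0.1015 without NC_2, 0.1131 without NC_3, 0.0932 without SiCIRBP_1 and 0.0902 without SiCIRBP_3. Each of these fits has a lone library in 1 group, which is taken to vary as the other group does. The labels number the libraries as replicates without saying whether they came from separate cultures, so that p-values measure the spread between these libraries only.

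**Figure D1:**
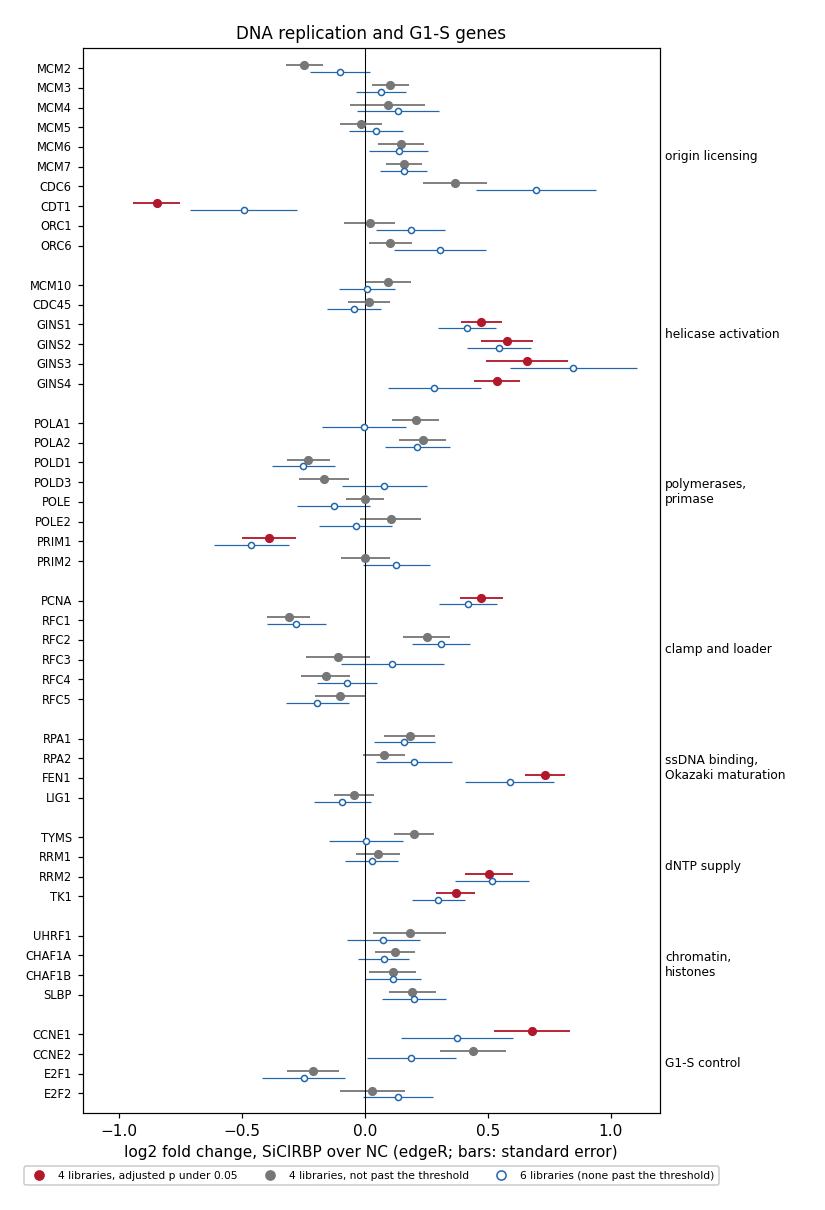
Each row is 1 of the 46 genes, grouped by role, and the horizontal axis is the log2 fold change of SiCIRBP over NC from edgeR with its standard error. Filled points are the 4-library test, red where the adjusted p was under 0.05, and open blue points are all 6 libraries. The 4 GINS genes lie to the right of 0, CDT1 lies farthest to the left at -0.85 in 4 libraries, and the MCM2 to MCM7 genes lie between -0.25 and 0.16.

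Origin licensing was the role with the most members, and 1 of its 10 was called, CDT1 being lower. CDT1, which brings the MCM ring to origins, was at 106.4, 158.2 and 182.2 CPM in NC_1, NC_2 and NC_3 and at 94.3, 128.2 and 94.7 CPM in SiCIRBP_1, SiCIRBP_2 and SiCIRBP_3. NC_1 lay below SiCIRBP_2, so the groups overlapped over 6 libraries. In 4 libraries the log2 fold change was -0.85 ± 0.10 (SE, n = 2 per group; adjusted p = 0.00594, edgeR), and in 6 libraries it was -0.49 ± 0.22 (n = 3 per group; adjusted p = 0.215, edgeR). Geminin (GMNN), the inhibitor that binds CDT1, was among the other replication factors and was called higher in 4 libraries by 0.55 ± 0.11 (adjusted p = 0.0232, edgeR). Per length, CDT1 stood at 1.03, 1.92 and 2.19 times the TPM of GMNN in NC_1, NC_2 and NC_3 and at 0.815, 0.562 and 0.698 times in the SiCIRBP libraries. The ratio did not overlap between the groups. The pair was picked because its genes went opposite ways in these data, so this separation is a description and no further support.

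CDC6, the ATPase that works with CDT1 in loading the helicase, went the other way without being called in the 4-library edgeR test. Its level was 103.8, 99.02 and 102.2 CPM in NC_1, NC_2 and NC_3 and 112.9, 234.5 and 146.2 CPM in SiCIRBP_1, SiCIRBP_2 and SiCIRBP_3. The SiCIRBP libraries were all above the NC libraries but spread widely, and SiCIRBP_2, which also held the interferon-stimulated transcripts, was the highest. The log2 fold change of CDC6 was 0.37 ± 0.13 in 4 libraries (adjusted p = 0.0905, edgeR) and 0.69 ± 0.24 in 6 (adjusted p = 0.154, edgeR). In 4 libraries it was called higher by DESeq2 (adjusted p = 0.0454) and by edgeR with no filter on low counts (adjusted p = 0.00806). The part of the interferon-stimulated genes in this spread was not tested.

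The subunits of the MCM2 to MCM7 helicase were not called in either direction in the 4-library edgeR test. MCM4 rested on single libraries, at a log2 fold change of -0.17 without SiCIRBP_3 and of 0.30 without SiCIRBP_1 (edgeR). MCM7, chosen after its values were seen, was at 509.2, 510.2 and 502.1 CPM in the NC libraries and at 569.7, 567.1 and 559.8 CPM in the SiCIRBP libraries. The groups did not overlap and the spread within each was small, yet the log2 fold change of 0.16 ± 0.07 did not pass (adjusted p = 0.162, 4 libraries, edgeR). MCM2 was at -0.25 ± 0.08 (adjusted p = 0.0629, 4 libraries, edgeR), and it was called lower with no filter on low counts (adjusted p = 0.0238, edgeR). For this gene NC_1, at 279.9 CPM, lay among the SiCIRBP values of 272.3 to 318.1 CPM. The other members of the role, which include the origin recognition genes ORC1 and ORC6, lay between -0.02 and 0.14 in 4 libraries.

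The helicase activators gave the largest share of calls. GINS1, GINS2, GINS3 and GINS4 code for the complex that holds CDC45 on the MCM ring, and all 4 were called higher in 4 libraries, whereas MCM10 and CDC45 were not called. GINS1 was at 65.4, 56.0 and 53.8 CPM in NC_1, NC_2 and NC_3 and at 75.9, 81.3 and 76.4 CPM in SiCIRBP_1, SiCIRBP_2 and SiCIRBP_3. GINS2 was at 51.4, 43.9 and 43.4 CPM in the NC libraries and at 70.0, 72.4 and 60.1 CPM in the SiCIRBP libraries. Both genes were separated without overlap over all 6 libraries, with NC_1 the highest of the controls. In 4 libraries the log2 fold change was 0.47 ± 0.09 for GINS1 (adjusted p = 0.0161, edgeR) and 0.58 ± 0.11 for GINS2 (adjusted p = 0.0169, edgeR).

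GINS3 and GINS4 behaved differently in SiCIRBP_2. GINS3 was at 30.9, 25.01 and 23.5 CPM in the NC libraries and at 32.0, 66.5 and 44.4 CPM in SiCIRBP_1, SiCIRBP_2 and SiCIRBP_3. GINS4 was at 49.1, 42.9 and 42.6 CPM in the NC libraries and at 64.7, 39.5 and 59.4 CPM in the SiCIRBP libraries. SiCIRBP_2 was thus the highest library of all for GINS3 and the lowest of all for GINS4. The log2 fold change in 4 libraries was 0.66 ± 0.17 for GINS3 (adjusted p = 0.0387, edgeR) and 0.54 ± 0.09 for GINS4 (adjusted p = 0.0153, edgeR), and over 6 libraries GINS4 was at 0.28 ± 0.19 (adjusted p = 0.381, edgeR). GINS4 shares 19.9% of its 31-base words with an antisense gene that was at 2.27 CPM, and CDC45 was between 54.7 and 62.5 CPM in every library.

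**Figure D2:**
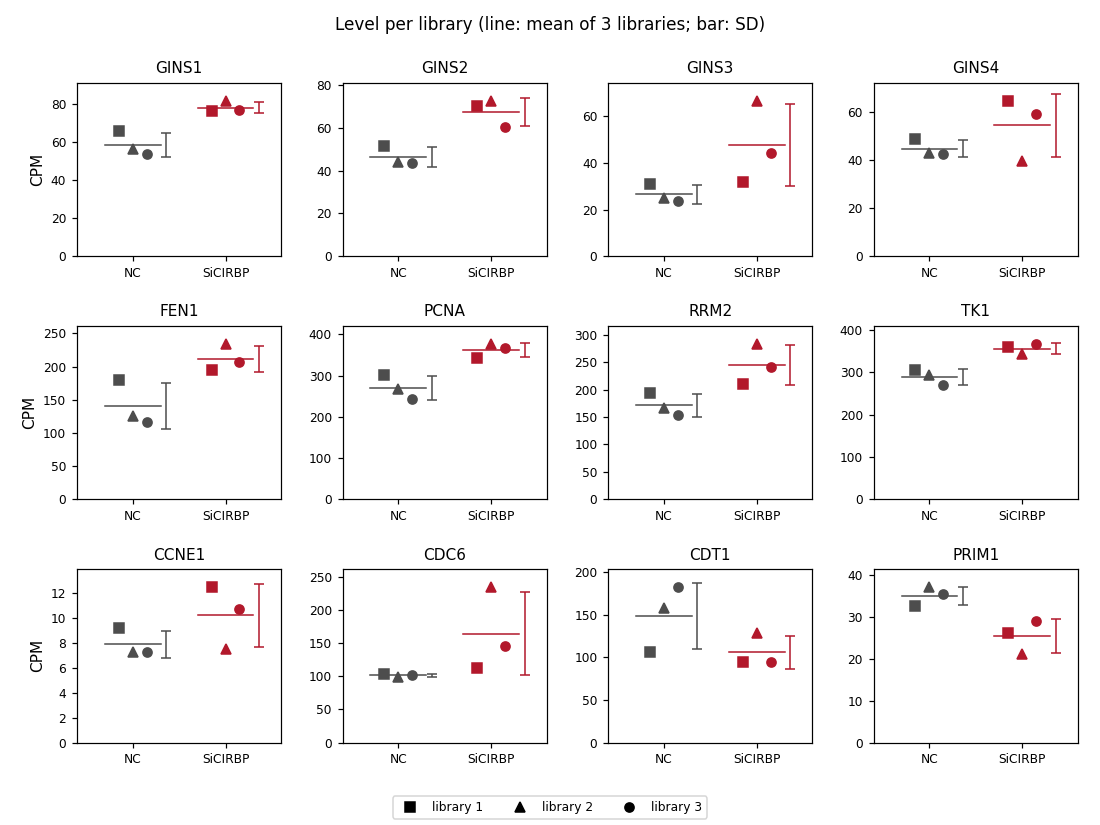
Levels in CPM, on axes that start at 0, of the 11 members called in 4 libraries and of CDC6, with NC in grey and SiCIRBP in red. Symbols mark the library number, the horizontal line is the mean of 3 libraries and the bar beside it is the SD. The SiCIRBP points lie above all NC points for GINS1, GINS2, GINS3, FEN1, PCNA, RRM2, TK1 and CDC6 and below them for PRIM1, and they overlap for GINS4, CCNE1 and CDT1.

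Among 8 genes of the polymerases and primase, PRIM1 was called lower and none was called higher. PRIM1, the catalytic subunit of primase, was at 32.6, 37.1 and 35.4 CPM in NC_1, NC_2 and NC_3 and at 26.1, 21.1 and 29.1 CPM in SiCIRBP_1, SiCIRBP_2 and SiCIRBP_3. Every SiCIRBP library lay below every NC library, SiCIRBP_2 being the lowest. The log2 fold change was -0.39 ± 0.11 in 4 libraries, at the edge of the threshold (adjusted p = 0.0499, edgeR), and the call was lost with DESeq2 (adjusted p = 0.053) and with the size factors of the RLE method. PRIM2, its regulatory partner, lay at 0.00 ± 0.10, and the 4-library values of the other members of the role ran from -0.23 for POLD1 to 0.23 for POLA2. POLA2 shares 34.5% of its words with an overlapping gene on the same strand, at 8.68 CPM, which makes its counts uncertain. PRIM1 shares exonic bases on the same strand with AC117378.1 (14.9%, at 0.208 CPM) and with NACA (1.35%, at 465 CPM), so its counts are less sure.

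Of the clamp and its loader, PCNA was called higher and no RFC gene was called in the 4-library edgeR test. PCNA, the ring that tethers polymerases to DNA, was at 300.7, 268.4 and 243.4 CPM in the NC libraries and at 342.2, 376.2 and 368.1 CPM in SiCIRBP_1, SiCIRBP_2 and SiCIRBP_3. The groups did not overlap, and the log2 fold change was 0.47 ± 0.09 in 4 libraries (adjusted p = 0.0167, edgeR). RFC1, the large subunit of the loader that opens this ring, lay at -0.31 ± 0.09 in 4 libraries, just outside the threshold (adjusted p = 0.0517, edgeR), and it was called lower by edgeR with at least 10 counts in every library (adjusted p = 0.0481) and with no filter (adjusted p = 0.0274). Its 3 SiCIRBP values, between 59.9 and 67.5 CPM, were all below its NC values of 69.3 to 83.6 CPM. RFC2, named after its values were seen, was above the NC libraries in every SiCIRBP library, at 91.9 to 108.9 against 75.1 to 84.7 CPM, with an adjusted p of 0.111 in 4 libraries (edgeR).

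FEN1 had the largest log2 fold change of the list in the 4-library edgeR test, whereas GINS3 (0.85) and CDC6 (0.69) were above it over 6 libraries. FEN1 trims the flaps of Okazaki fragments before the ligase LIG1 seals them, and it was at 180.5, 124.9 and 116.8 CPM in NC_1, NC_2 and NC_3 and at 195.2, 233.6 and 206.3 CPM in SiCIRBP_1, SiCIRBP_2 and SiCIRBP_3. The groups did not overlap, but NC_1 lay close to SiCIRBP_1 and away from the other controls. In 4 libraries the log2 fold change was 0.73 ± 0.08 (adjusted p = 0.00599, edgeR), and in 6 it was 0.59 ± 0.18 (adjusted p = 0.126, edgeR). LIG1 was at -0.05 ± 0.08 in 4 libraries (adjusted p = 0.728, edgeR), and RPA1 and RPA2, which coat single-stranded DNA, were not called. In TPM, FEN1 stood at 2.35, 1.59 and 1.40 times LIG1 in NC_1, NC_2 and NC_3 and at 2.26, 3.24 and 2.49 times in the SiCIRBP libraries, which overlapped through NC_1. FEN1 shares 1.98% of its exonic bases with FADS2 (same strand, 210 CPM) and 6.7% with TMEM258 (opposite strand, 55.8 CPM).

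In deoxynucleotide supply, RRM2 and TK1 were called higher and RRM1 and TYMS were not. RRM2, the small subunit that gives ribonucleotide reductase its S-phase activity, was at 194.4, 166.0 and 153.2 CPM in the NC libraries and at 210.8, 282.6 and 241.6 CPM in SiCIRBP_1, SiCIRBP_2 and SiCIRBP_3. TK1, the salvage kinase of thymidine, was at 306.4, 293.7 and 269.5 CPM in the NC libraries and at 359.7, 342.6 and 366.7 CPM in the SiCIRBP libraries. Neither gene overlapped between the groups. Their log2 fold changes in 4 libraries were 0.50 ± 0.10 for RRM2 (adjusted p = 0.0188, edgeR) and 0.37 ± 0.08 for TK1 (adjusted p = 0.0256, edgeR). RRM1, the large subunit, lay between 187.2 and 212.1 CPM in every library, and the ratio of RRM2 to RRM1 in TPM was 1.39, 1.35 and 1.31 in NC_1, NC_2 and NC_3 and 1.96, 1.89 and 1.75 in the SiCIRBP libraries. This pair was also picked with its values known. RRM2 overlaps the gene AC007240.1 on the same strand over 20.2% of its exonic bases, and no level of that gene was measured here, so that its counts are less sure. TYMS overlaps ENOSF1 on the opposite strand and shares 35.7% of its words with it, so its values are uncertain.

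Of G1-S control, CCNE1 was called higher in 4 libraries. CCNE1, the cyclin E gene whose product activates its kinase at S-phase entry, was the least abundant member in CPM, at 9.1, 7.2 and 7.2 CPM in NC_1, NC_2 and NC_3 and at 12.4, 7.5 and 10.7 CPM in SiCIRBP_1, SiCIRBP_2 and SiCIRBP_3. SiCIRBP_2 lay among the NC libraries and below NC_1. The log2 fold change was 0.68 ± 0.15 in 4 libraries (adjusted p = 0.0292, edgeR) and 0.38 ± 0.23 in 6 (adjusted p = 0.338, edgeR). CCNE2 was at 0.44 ± 0.13 in 4 libraries (adjusted p = 0.0616, edgeR), and it was called higher with no filter on low counts (adjusted p = 0.0266, edgeR). It overlaps INTS8 on the opposite strand over 37.0% of its exonic bases, so that its counts are uncertain. The activator genes E2F1 and E2F2 were not called, and E2F1 was lowest in SiCIRBP_2 at 111.4 CPM against 141.8 to 181.3 CPM in the NC libraries. None of the 4 chromatin and histone genes was called, and UHRF1, CHAF1A, CHAF1B and SLBP lay between 0.11 and 0.19.

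Over all 6 libraries the SiCIRBP and NC values of 12 members did not overlap. The 10 that lay above were CDC6, FEN1, GINS1, GINS2, GINS3, MCM7, PCNA, RFC2, RRM2 and TK1, which is 21.7% of the members, and 16.2% of all expressed genes lay above. PRIM1 and RFC1 lay below, which is 4.35% of the members, and 16.6% of all expressed genes lay below. These counts hold for CPM, and the balance changed in TPM. There 6 members lay above (13.0%, against 8.84% of 13426 genes), namely CDC6, FEN1, GINS2, GINS3, PCNA and RRM2, and 7 lay below (15.2%, against 23.7% of genes), namely MCM2, MCM3, CDT1, CDC45, RFC4, RFC5 and PRIM1. For a single gene an exact permutation test of 3 against 3 libraries can give no two-sided p under 0.1.

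NC_1 lay on the SiCIRBP side of NC_2 and NC_3 for all 11 called members. The distance was between 0.335 of the NC to SiCIRBP difference for TK1 and 0.8 for CDT1, with a median of 0.496. These members were called with NC_2 and NC_3 as the controls, so that this count is a description. SiCIRBP_2 differed from the mean of SiCIRBP_1 and SiCIRBP_3 by a log2 of 0.5 or more in 8 of 46 members (17.4%), against 29% of all expressed genes. These 8 were CDC6 at 0.86, GINS3 at 0.80, RFC3 at 0.69, ORC6 at 0.63 and POLD3 at 0.53, which were higher, and GINS4 at -0.64, CCNE1 at -0.57 and POLA1 at -0.54, which were lower.

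**Figure D3:**
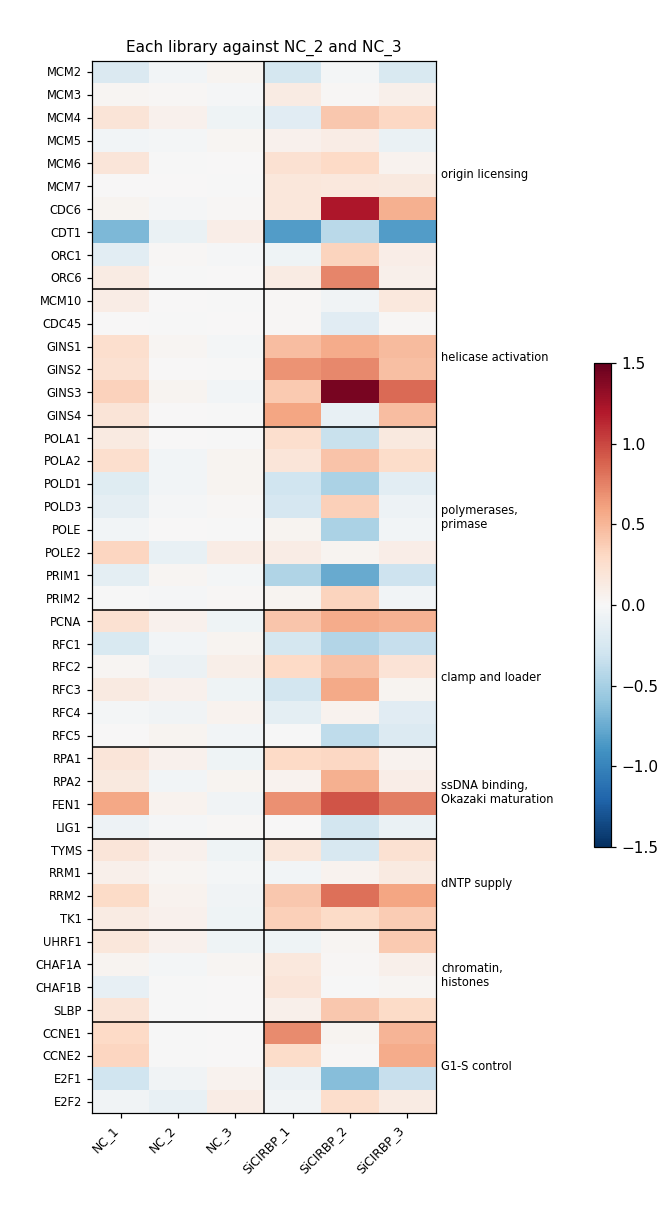
Each row is a member, grouped by role, each column is a library, and the colour is the log2 difference from the mean of NC_2 and NC_3, from -1.5 in blue to 1.5 in red. The GINS1, GINS2, GINS3, FEN1, PCNA and RRM2 rows are red in the SiCIRBP columns and paler red in NC_1, GINS4 is red in SiCIRBP_1 and SiCIRBP_3 and at -0.11 in SiCIRBP_2, CDT1 is blue in NC_1 and in all SiCIRBP columns, and SiCIRBP_2 holds the deepest red cells, GINS3 at 1.42 and CDC6 at 1.21.

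The levels per length show how unequal the transcripts of a single complex were. Of the MCM2 to MCM7 ring, whose subunits sit in equal number in the protein, MCM7 was the highest in TPM at 262.0 to 298.6 and MCM6 the lowest at 35.2 to 40.4 in every library, a ratio of 6.88 to 8.22. The summed TPM of the ring was between 820.2 and 884.2 in all 6 libraries, with the groups overlapping. The summed TPM of GINS was 113.8, 104.8 and 93.3 in NC_1, NC_2 and NC_3 and 130.0, 121.6 and 131.7 in SiCIRBP_1, SiCIRBP_2 and SiCIRBP_3, and the groups did not overlap. Ribonucleotide reductase was also higher in SiCIRBP without overlap (232.3 to 258.3 against 212.7 to 223.3). RFC (252.1 to 257.4 against 261.3 to 284.9) and polymerase alpha-primase (81.2 to 93.6 against 103.0 to 109.8) were lower without overlap. The sums of CHAF1A and CHAF1B overlapped. Of single genes in TPM, 8.84% lay above and 23.7% below. In the polymerase alpha-primase complex PRIM1 had the highest TPM in every library except SiCIRBP_2, where PRIM2 was higher, and POLA1 had the lowest in all 6.

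**Figure D4:**
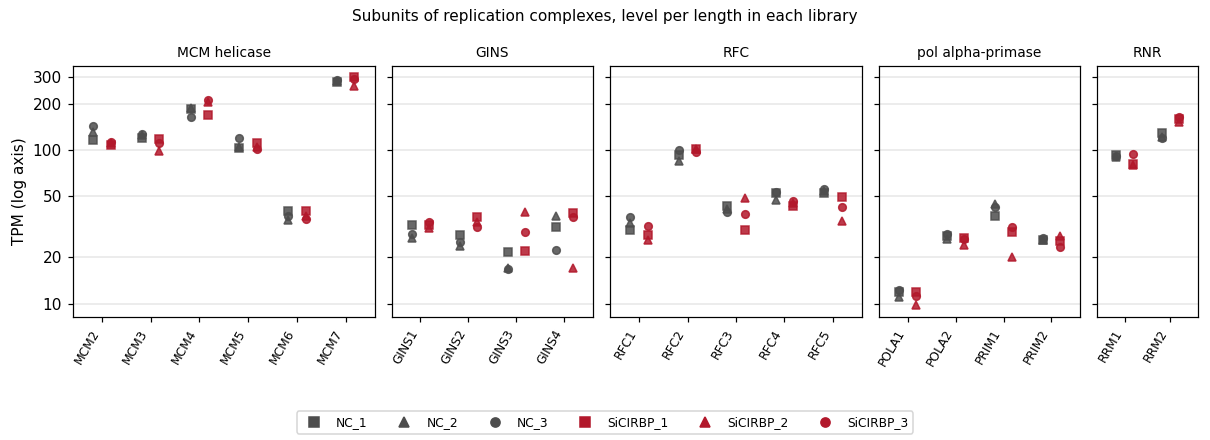
TPM on a log axis of the subunits of 5 complexes, with NC libraries in grey and SiCIRBP libraries in red and a symbol for each library number. MCM7 lies above and MCM6 below the other MCM subunits in every library, RRM2 lies above RRM1 and its red points are above its grey points, and GINS4 has its NC_2 and SiCIRBP_2 points at 37.2 and 17.1.

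The scale used changed which members passed. TPM scales each library to a fixed total and divides by an assigned transcript length, and on that scale the median of all 13603 genes tested was lower in SiCIRBP by 0.09 on the log2(TPM + 1) scale, or by 0.13 over 6 libraries. With limma on log2(TPM + 1) in the 4 libraries, 3 members (FEN1, PCNA and RRM2) were called higher and CDT1 and PRIM1 were called lower, against 10.4% of all genes in either direction. The 46 members had a median of -0.01 on this scale, which was 0.09 above the median of all genes. GINS1, GINS2, GINS3, GINS4, TK1 and CCNE1 kept their direction without passing, with adjusted p-values between 0.0651 and 0.305 (limma). Over 6 libraries limma called no member and no gene (0%), 9 members and 3166 genes had an unadjusted p under 0.05, and the smallest adjusted p of a member was 0.126. The transcript length that counts and TPM together imply for each gene differed between the groups, without overlap and by a log2 of 0.25 or more, in none of the 46 members, against 3.07% of 11560 genes. For GINS4 this implied length, relative to the mean of NC libraries, was 0.764 in NC_2 and 1.29 in NC_3, so that its level per length is less sure than its count.

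Promoter sequence is shown because E2F binding sites are the textbook feature of these genes. RefSeq promoters on GRCh38.p14, from 250 bases before to 50 after the start, were matched by symbol for 40 of the 46 members. The letters TTTCCCGC, TTTCGCGC, TTTGCCGC and TTTGGCGC were searched on both strands, and matches may overlap on opposite strands. At least 1 of them was found in 18 of 40 promoters (45%), against 5.23% of 10522 promoters of expressed genes, 3.27% of all 27305 promoters and 8.57% of 35 promoters of mitosis and G2-M genes. Each stretch below holds the match nearest the start, and further matches in E2F1 and MCM6 are not shown in full. The E2F1 stretch opens with part of another match, left in lower case. The following stretches of 30 bases are written 5′ to 3′ on the strand of the gene, with the letters of whole matches in capitals. They belong to the 4 called members that hold E2F letters and to CDC6, the E2F gene E2F1 and MCM6, none of which was called.
GINS1: agctttgttcgGCGCCAAAgcgcggagcgg
GINS2: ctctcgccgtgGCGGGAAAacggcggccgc
GINS3: cgtccccgggcGCGGGAAAcgagtttcaat
CDT1: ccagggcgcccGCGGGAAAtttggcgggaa
CDC6: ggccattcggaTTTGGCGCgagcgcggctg
E2F1: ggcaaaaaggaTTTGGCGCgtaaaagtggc
MCM6: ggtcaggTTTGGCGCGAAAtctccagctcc

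These stretches lie at chr20:25407667-25407696 (plus strand) for GINS1, chr16:85688967-85688996 (minus strand) for GINS2, chr16:58392455-58392484 (plus strand) for GINS3 and chr16:88803743-88803772 (plus strand) for CDT1. Those of the other genes lie at chr17:40287875-40287904 (plus strand) for CDC6, chr20:33686387-33686416 (minus strand) for E2F1 and chr2:135876511-135876540 (minus strand) for MCM6. The match starts 31 bases before the RefSeq start in GINS2 and 35 before it in CDT1, and at base 6 in GINS1, counting the start itself as base 1. GINS2 and GINS3, which were called higher, and CDT1, which was called lower, hold the same letters in the same orientation, GCGGGAAA. The 18 members with the letters had a median log2 fold change of 0.12 in 4 libraries, with 4 called, and ran from -0.85 to 0.66. The 22 members without them had a median of 0.11, with 6 called, and ran from -0.39 to 0.73.

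Of the other letters searched on both strands, CHR and CCAAT were found at different shares in the mitosis promoters, and the GC box at a like share. TTTGAA, the CHR element of genes expressed in G2 and mitosis, was in 2.5% of the member promoters, 74.3% of the mitosis and G2-M promoters and 9.75% of the promoters of expressed genes. CCAAT was in 55.0%, 80.0% and 36% of the same sets, and the GC box GGGCGG was in 75%, 74.3% and 69.6%. A match of letters is no measure of binding, and no factor was measured here.

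Genes of the same processes outside the list were counted beside the 19.4% of all genes called in 4 libraries. Of 35 other replication factors, 5 were called higher and 1 lower, which at 17.1% lay near that background, with a median log2 fold change of 0.05. CHTF8 of the alternative clamp loader had the largest value at 1.21 ± 0.09 (adjusted p = 0.00262, edgeR), with NC_1 at 72.4 CPM between 42.3 and 43.5 CPM in the other controls and 94.8 to 102.0 CPM in SiCIRBP, and it overlaps HAS3 on the opposite strand. The nuclease-helicase gene DNA2 was called lower at -0.47 ± 0.11 (adjusted p = 0.0298, edgeR). Of 28 other G1-S regulators tested, 9 were called higher and 1 lower (35.7%), with a median of 0.11, among them the kinase inhibitor gene CDKN2C at 0.92 ± 0.11, the cyclin D1 gene CCND1 at 0.83 ± 0.14 and the phosphatase gene CDC25A at 0.68 ± 0.11. CDKN1A, which codes for the inhibitor p21, was at 31.8, 41.2 and 46.9 CPM in NC_1, NC_2 and NC_3 and at 34.8, 111.1 and 34.2 CPM in SiCIRBP_1, SiCIRBP_2 and SiCIRBP_3, and was not called (adjusted p = 0.0637 in 4 libraries, edgeR). SiCIRBP_2 alone was above the controls in this gene.

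The mitosis and G2-M genes, measured for comparison, had more calls. Of 42, 23 (54.8%) were called higher and none lower in 4 libraries, with a median log2 fold change of 0.37 against 0.10 for the 46 replication genes, and edgeR called none of them over 6 libraries, where 15 had an unadjusted p under 0.05 and DESeq2 called 5 higher. The mitotic kinase gene AURKA was at 1.06 ± 0.12 (adjusted p = 0.00589, edgeR) and the kinesin gene KIF20A at 0.90 ± 0.11 (adjusted p = 0.00713, edgeR). Their summed level was 7074, 6130 and 5787 CPM in NC_1, NC_2 and NC_3 and 7557 to 7576 CPM in the SiCIRBP libraries, so that NC_1 was again the control nearest to SiCIRBP. The difference between the lists was not tested.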

How the data were processed

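RNA-seq was analysed in 3 NC and 3 SiCIRBP libraries, grouped by their labels. The authors deposited an expected count per gene and library, not normalized, and TPM values, in which counts are divided by an assigned transcript length and scaled per library. The labels name fastp, HISAT, RSEM and hg38, without versions, and whether counting used strand is not given in the sources used here. Columns of the authors' own comparisons (fold changes, p-values) were not used.

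Rounded counts went into edgeR 4.0.16 under R 4.3.3 (TMM, filterByExpr, glmQLFTest), in the study's 4 libraries first and in all 6 beside them. The standard error is the size of the log2 change over the root of its F statistic. CPM used TMM-scaled library sizes, and single-library differences log2(CPM + 1). Library totals were 25726259 to 29919566 counts, with 186 or more per member. Counting error was not small beside the spread in every member. CCNE1 had 186 and 221 counts in NC_2 and NC_3, yet lay at 7.223 and 7.249 CPM there. DESeq2 1.42.0, RLE size factors, other filters, each library left out and the replicate block were alternatives, and limma 3.58.1 on log2(TPM + 1), over genes with a TPM of 1 or more in at least 2 of 4 or 3 of 6 libraries, was added after seeing the data. The edgeR and limma fits were tried on simulated data with 1 fixed spread for all libraries. No outlying library was simulated, so that this trial does not cover unequal spread. Overlaps and shared words of 31 bases came from GENCODE 29 on GRCh38, and promoters from RefSeq. Genes named by rule were members called in 4 libraries, the highest and lowest member per role and in SiCIRBP_2, and up to 5 called genes of each other list with the smallest p; other members were named after their values were seen. Members and lists were chosen with earlier results of these data known. Gene pairs given as TPM ratios were picked for the directions they took in these data.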

Additional observations from a re-analysis of the deposited data

How the results depend on the processing

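The calls depended on which libraries were tested. Over 4 libraries the count of members called higher (9) was 9 with RLE size factors and with at least 10 counts in every library, 10 with DESeq2 and 11 with no filter on low counts, but 3 with limma on log2(TPM + 1) and 0 in all 6 libraries. The count called lower (2) was 1 with RLE size factors and with DESeq2, 4 with no filter and 3 with at least 10 counts. It was 2 with limma and 0 in all 6 libraries. Of all genes, edgeR called 9.62% higher and 9.76% lower, and DESeq2 10.7% and 11.9%. With no filter 2123 of 26574 genes were higher and 2492 lower, and with RLE size factors 1496 and 1485 of 15421. Among all genes tested too, leaving out NC_2 or NC_3 gave fewer calls and leaving out SiCIRBP_1 or SiCIRBP_3 gave more. The range given next is thus no property of the members. Leaving out 1 of the 4 libraries at a time, the higher count ran from 0 to 16 and the lower count from 0 to 8. The members' median log2 fold change was 0.1034, and it was 0.1062 with RLE size factors, 0.0857 with no filter, 0.1081 with at least 10 counts, 0.1007 with DESeq2, 0.1208 in all 6 libraries and 0.0902 to 0.1131 with a library left out, all above 0, but -0.007 with limma on TPM, where all genes shifted by -0.0925.

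Over 6 libraries the higher count of 0 became 1 with no filter, 5 with DESeq2 and 0 to 2 with a library left out, the 2 coming without SiCIRBP_2. Of all genes, 421 of 28001 were called higher with no filter, 4.48% with DESeq2 and 554 of 15530 without SiCIRBP_2. The lower count was 0 in every alternative run. The median was 0.1208, ran from 0.0755 to 0.1526 with a library left out, and was -0.0332 with limma on TPM, where all genes shifted by -0.1288. With the replicate number as a block, edgeR called 0 members and 1 gene of 15217, and the median was 0.1154. Same-numbered libraries deviated from their group means with correlations of -0.118, 0.006 and -0.026 over 15217 genes, which gave no sign of pairing. These values cannot exclude it, since the group means include SiCIRBP_2, which stood apart, and the labels do not state it. In the 4-library test no paired analysis was possible, because its NC and SiCIRBP libraries share a single replicate number.

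The 11 called members kept their direction in every alternative run except GINS4, which was at -0.0327 with limma on TPM over 6 libraries. Over the settings tried on the 4-library values and all 6 libraries with and without the block, the call was lost in 51 fits and held in 59. Of the 35 members not called, 19 changed sign in at least 1 fit. MCM4 did so at -0.1729 without SiCIRBP_3, and it was at 0.3046 without SiCIRBP_1 (edgeR). Among those named by rule, the sign changed for CDC45 at -0.0011 with no filter, -0.0454 in all 6 libraries, -0.048 with the replicate block and -0.1465 on TPM, POLA2 at -0.0444 on TPM, and RRM1 at -0.045 without SiCIRBP_3 (up to 0.1331 with another library left out) and -0.0604 on TPM. The cause of these changes was not tested.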
